A study of Homo sapiens with 6 samples.

Results

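Near-silent genes were examined after knockdown of SOX2, a transcription factor of pluripotency, in PA1, an established human cell line from an ovarian teratocarcinoma. The genes described are SST, GDNF, KCNK17, UPP2, LINC01667, LUZP2, AL353747.2 and AC041005.1, 8 of the 59653 gene symbols in the count table. They were chosen by measured values of this same comparison: no library of one group had more than 3 counts, and every library of the other had clear counts. The differences between the groups are therefore given for the members as a description, without a test. In total 6 members were higher and 2 were lower after SOX2 knockdown.

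Adherent PA1 cells, labelled wild type, received a control siRNA (small interfering RNA) or siRNA targeting SOX2. Both groups stayed adherent for 24 h and were then kept for 72 h in suspension on poly-HEMA, a coating that prevents attachment. Each group had 3 libraries of polyadenylated RNA, numbered 1 to 3. The labels do not say whether the libraries of a group came from separate cultures, so p-values measure only the spread between these samples, which may be technical. The labels name more than 1 SOX2 siRNA without saying whether they were pooled, and 1 cell line was studied.

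Totals ranged from 25152313 to 32753184 counts per library. A count of 0 was bounded by a floor of 3 counts, a one-sided limit, which corresponds to 0.0909 to 0.120 CPM depending on the library (CPM are counts scaled by library size). The plotted two-sided 95% Poisson interval of a count of 0 reaches higher, to 3.69 counts. The floor and the counting intervals cover counting error only. SOX2 expression fell from 255 ± 10.1 to 52.5 ± 2.21 CPM (SD, n = 3), which is -2.28 on the log2 scale (SE 0.0437; adjusted p = 5.97e-16 by edgeR with Benjamini-Hochberg adjustment). Of 13 pluripotency-type markers of PA1 cells, SOX2 included, 10 passed the low-count filter. Of these, edgeR called 4 higher and 3 lower, beside 28.2% called over all tested genes. The 12 other than SOX2 summed to 2779 to 2840 CPM in control and 2772 to 2837 CPM in SOX2 siRNA libraries. Opposite changes cancel in these sums, so they do not show an unchanged state. Mean PODXL fell from 1316 to 671 CPM and NANOG from 0.820 to 0.216 CPM. LIN28A rose from 706 to 1148 CPM and LIN28B from 239 to 359 CPM. In bulk RNA, fewer cells of a type and less RNA per cell cannot be told apart, so a level near 0 may be few transcripts in many cells or more in a few cells.

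The members have unlike roles. SST encodes somatostatin, a secreted peptide made in pancreatic delta cells, the stomach and inhibitory neurons, which restrains the release of other hormones. GDNF is a secreted growth factor that binds the co-receptor GFRA1 and signals through the receptor tyrosine kinase RET; it guides outgrowth of the ureteric bud, maintains spermatogonial stem cells and supports neurons. KCNK17 is a two-pore potassium channel that carries background current at the cell membrane and is activated by alkaline conditions outside the cell. UPP2 is a uridine phosphorylase, which splits uridine into uracil and a ribose phosphate. LUZP2 encodes a leucine zipper protein found mainly in the nervous system. LINC01667 and AL353747.2 are long intergenic non-coding RNAs (lincRNAs), and no role is given for them or for AC041005.1.

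Upstream sequences were examined because SOX2, the factor knocked down, binds DNA at a short core. RefSeq windows (GRCh38.p14) reach from 250 bases before to 50 bases after a start site, and 10 windows for 6 of the 8 members were found. The letters searched, on both strands, were the SOX core CATTGT, the octamer ATTTGCAT, the cAMP response element TGACGTCA, the TATA box TATAAA and the T-box half-site AGGTGTGA. Shown are the 4 windows that held any of them, limited to bases outside annotated exons and 5′ to 3′ on the gene's strand, with the matching letters in capitals.
SST, chr3:187670400-187670644, minus strand: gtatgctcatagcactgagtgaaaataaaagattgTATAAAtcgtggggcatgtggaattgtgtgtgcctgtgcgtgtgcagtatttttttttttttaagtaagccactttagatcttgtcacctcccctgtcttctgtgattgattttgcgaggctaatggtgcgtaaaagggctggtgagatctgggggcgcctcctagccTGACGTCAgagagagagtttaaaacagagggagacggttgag
KCNK17, chr6:39314554-39314669, minus strand: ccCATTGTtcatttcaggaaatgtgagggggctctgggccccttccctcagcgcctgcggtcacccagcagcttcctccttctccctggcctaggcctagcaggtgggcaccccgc
UPP2 start site with the lower coordinate, chr2:157994929-157995178, plus strand: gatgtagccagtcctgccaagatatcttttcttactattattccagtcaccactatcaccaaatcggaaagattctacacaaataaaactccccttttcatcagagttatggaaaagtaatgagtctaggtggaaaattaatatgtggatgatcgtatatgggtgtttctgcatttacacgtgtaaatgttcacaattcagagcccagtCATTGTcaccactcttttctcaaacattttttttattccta
UPP2 start site with the higher coordinate, chr2:158101626-158101867, plus strand: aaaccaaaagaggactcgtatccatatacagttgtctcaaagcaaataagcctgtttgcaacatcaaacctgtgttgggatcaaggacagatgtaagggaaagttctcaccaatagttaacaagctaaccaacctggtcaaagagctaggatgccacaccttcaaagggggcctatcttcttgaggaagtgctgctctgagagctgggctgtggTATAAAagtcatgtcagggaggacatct

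SST held TGACGTCA beginning 47 bases before the start site, and TATAAA beginning 215 bases before it. The cAMP response element is the site through which cAMP signalling is known to drive the somatostatin promoter. CATTGT began 248 bases before the KCNK17 start site and 41 bases before the first UPP2 start site, and TATAAA began 36 bases before the other UPP2 start site. None of these letters was found in the windows of GDNF, LINC01667 or LUZP2. The LINC01667 window, chr21:9821012-9821311, lies wholly upstream of the GENCODE 29 span given below for this gene, so its RefSeq start differs. Over all 35116 windows of this length, CATTGT was present in 10.8%, TATAAA in 11.5%, TGACGTCA in 1.85%, ATTTGCAT in 1.77% and AGGTGTGA in 0.98%. A match describes letters in a window and does not show binding.

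SST was at 0 counts in each of the 3 control libraries, against 74, 81 and 59 in SOX2 siRNA replicates 1 to 3. All SOX2 siRNA libraries stood far above the floor, and the groups did not overlap. The mean was 2.31 ± 0.292 CPM after SOX2 siRNA (SD, n = 3), at least 19.3-fold higher than control when control is set at the largest control floor of 3 counts per library. The coefficient of variation (CV, the SD as a share of the mean) was 12.6% among the SOX2 siRNA libraries, beside 11.8% from counting alone. The gene (ENSG00000157005.3) lies at chr3:187668906-187670399 on the minus strand of GRCh38, with 618 exonic bases in 2 exons in GENCODE 29, and none of its 31-base stretches occurs in another annotated gene.

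GDNF counts were 3, 0 and 2 in control replicates 1 to 3, against 15, 39 and 30 in SOX2 siRNA replicates 1 to 3. SOX2 siRNA replicate 1 was the lowest of its group, but it lay above every control library. Mean levels were 0.0534 ± 0.0475 and 0.902 ± 0.365 CPM (SD, n = 3). Summed counts, scaled by library size, were 15.8-fold higher after SOX2 siRNA, with a 95% exact conditional binomial interval of 6.51 to 49.96 that covers counting error only. The ratio was 24.5 without control replicate 1 and 11.3 without control replicate 2, the ends of its range over the libraries left out. The CV among SOX2 siRNA libraries was 40.5%, against 18.9% from counting alone, and the highest library exceeded the lowest 2.43-fold in CPM.

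The GDNF gene (ENSG00000168621.14) spans chr5:37812677-37839686 on the minus strand, with 4273 exonic bases. Its exons overlap those of the antisense gene GDNF-AS1 over 526 bases, 12.3% of the GDNF exons. GDNF-AS1 was at 0 in control and at 4, 6 and 2 counts in the SOX2 siRNA libraries. Whether counting used strand is not given in the sources used here, so reads from the shared bases cannot be told apart.

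KCNK17 was at 0 counts in each of the 3 control libraries, against 20, 19 and 31 in SOX2 siRNA replicates 1 to 3. No library of one group reached the other. The mean was 0.763 ± 0.241 CPM after SOX2 siRNA (SD, n = 3), at least 6.37-fold higher than the largest control floor. Its CV was 31.6%, against 20.7% from counting alone. The gene (ENSG00000124780.13) lies at chr6:39299001-39314553 on the minus strand, with 2172 exonic bases.

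UPP2 counts were 0, 1 and 0 in control replicates 1 to 3, against 12, 14 and 11 in SOX2 siRNA replicates 1 to 3. The SOX2 siRNA libraries were close to each other, with a CV of 8.12%, below the 28.5% that counting alone gives on average. Mean levels were 0.0133 ± 0.0230 and 0.400 ± 0.0324 CPM (SD, n = 3). The ratio of summed counts was 34.8, with an interval of 5.87 to 1412, and it rests on 1 control count. Without control replicate 1 or 3 the ratio was 21.6 or 23.2. Without control replicate 2, which holds that count, control is at 0 and the fold becomes a bound of at least 3.85. The bound is taken against the floor of 3 counts, a different measure from the ratio, so it does not mean a smaller difference. The gene (ENSG00000007001.12) spans chr2:157876702-158136154 on the plus strand, with 2957 exonic bases.

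LINC01667 counts were 0, 0 and 1 in control replicates 1 to 3, against 20, 20 and 23 in SOX2 siRNA replicates 1 to 3. The latter were nearly equal, and all lay above the control libraries. Mean levels were 0.0115 ± 0.0200 and 0.684 ± 0.0778 CPM (SD, n = 3). The ratio of summed counts was 59.3, with an interval of 10.3 to 2379. It again rests on 1 control count, and without control replicate 1 the ratio was 36.8. Without control replicate 3, which holds that count, the fold becomes a bound of at least 5.71 against the floor of 3 counts. As for UPP2, the lower value comes with the change of measure. The lincRNA (ENSG00000280081.3) lies at chr21:9781918-9814009 on the minus strand, with 2485 exonic bases.

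LUZP2 went the other way, with 14, 15 and 14 counts in control, against 2, 3 and 2 in SOX2 siRNA replicates 1 to 3. Raw counts differed by 1 at most within each group, while control CPM had a CV of 17.6% because the libraries differ in size. The groups did not overlap. Mean levels were 0.502 ± 0.0887 and 0.0753 ± 0.0151 CPM (SD, n = 3). The ratio of summed counts was 6.53-fold in favour of control, with an interval of 2.91 to 17.2. The gene (ENSG00000187398.11) spans chr11:24496970-25082631 on the plus strand, with 8851 exonic bases. Of its 31-base stretches, 10.8% occur in other genes and 9.35% in RBMS3, which had 420, 388 and 389 counts in control and 381, 436 and 346 counts in SOX2 siRNA libraries, so part of the LUZP2 counts is uncertain.

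AL353747.2 counts were 19, 9 and 21 in control replicates 1 to 3, against 0, 2 and 3 in SOX2 siRNA replicates 1 to 3. Control replicate 2 was the lowest of its group and lay above the SOX2 siRNA libraries. Mean levels were 0.554 ± 0.185 and 0.0541 ± 0.0507 CPM (SD, n = 3). The ratio of summed counts was 10.4-fold in favour of control, with an interval of 4.17 to 33.5, and it was 17.6 without SOX2 siRNA replicate 3 and 7.01 without SOX2 siRNA replicate 1. The lincRNA (ENSG00000228648.1) lies at chr6:167241891-167245916 on the plus strand, with 205 exonic bases.

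AC041005.1 counts were 2, 3 and 2 in control replicates 1 to 3, against 11, 12 and 17 in SOX2 siRNA replicates 1 to 3. It had the smallest ratio of the 6 members with counts in the lower group, though its interval overlapped that of LUZP2. The CPM of its groups did not overlap. Mean levels were 0.0832 ± 0.0320 and 0.435 ± 0.116 CPM (SD, n = 3). The ratio of summed counts was 5.38, with an interval of 2.38 to 14.2. The symbol was not matched in GENCODE 29 or the RefSeq gene table, so no position or length is given.

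**Figure D1:**
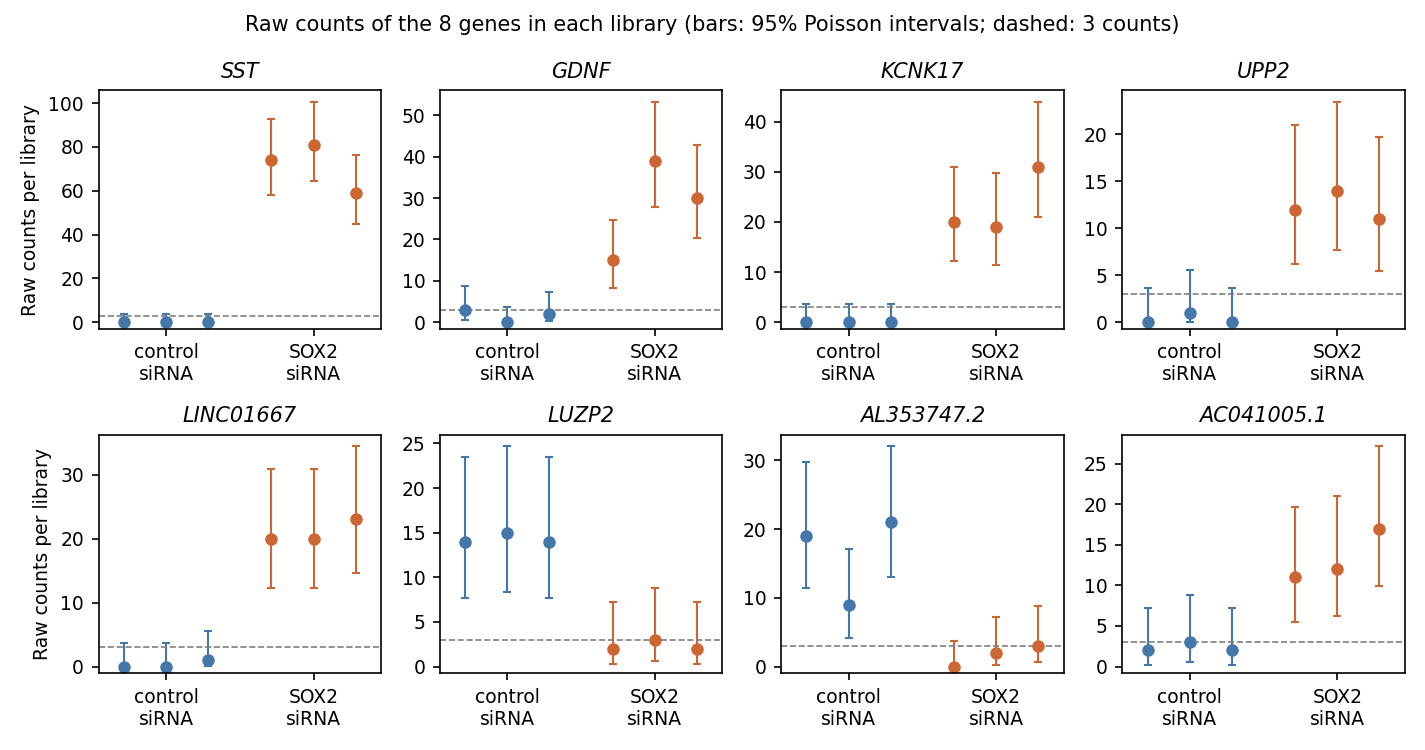
Raw counts per library for the 8 members, control siRNA and SOX2 siRNA, with exact 95% Poisson intervals for counting error. SST reaches 81 counts in SOX2 siRNA replicate 2, and LUZP2 and AL353747.2 are the members higher in control.

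As a description of the same counts that chose the members, their counting intervals were compared. For SST, KCNK17 and LINC01667, the 95% Poisson interval of the lowest library in the higher group did not overlap that of the highest library in the lower group. For the other 5 members these intervals overlapped, although the measured CPM did not. In total 2 members, SST and KCNK17, had 0 counts in every control library. The other 6 had at least 1 count in the lower group, so a state without any counts was seen for SST and KCNK17 alone among the 8.

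**Figure D2:**
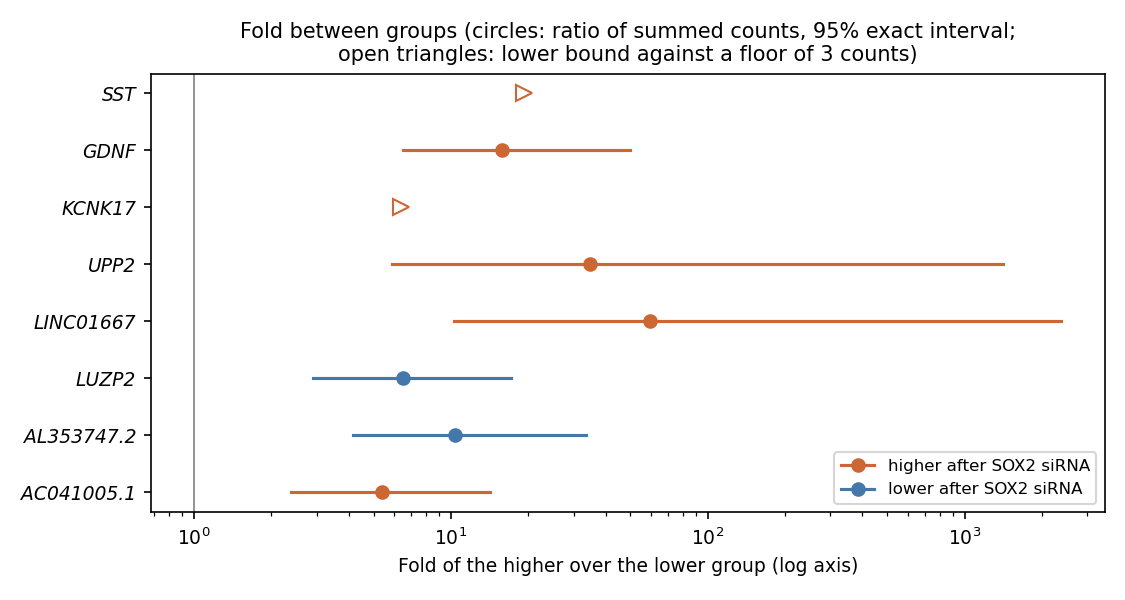
Fold of the higher over the lower group on a log axis, with exact 95% intervals where the lower group had counts and lower bounds (19.3 for SST, 6.37 for KCNK17) where it had none. The intervals of UPP2 and LINC01667 are the widest because each rests on 1 control count. Bounds use the floor of a single control library, while ratios pool the libraries of a group, so bounds and ratios cannot be ranked together.

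The 7 members with an annotated length were compared with each other per kilobase of exon, as CPM per kb. AC041005.1 has no annotated length and is left out of this order. After SOX2 siRNA, SST was highest at 3.74 ± 0.472 CPM per kb, with all 3 libraries above every library of the other members compared. Next came KCNK17 at 0.351 ± 0.111, LINC01667 at 0.275 ± 0.0313, AL353747.2 at 0.264 ± 0.247, GDNF at 0.211 ± 0.0855 and UPP2 at 0.135 ± 0.0110 CPM per kb (SD, n = 3). Neighbours in that order overlapped in their libraries and are not ranked beyond their spread. LUZP2 was lowest, at 0.00749 to 0.0105 CPM per kb, but AL353747.2 had 1 library at 0.

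In control libraries the rule itself placed AL353747.2 and LUZP2 above the other members in raw counts, but it does not fix levels per kb. AL353747.2 was at 2.701 ± 0.900 CPM per kb (SD, n = 3), followed by LUZP2 at 0.0568 ± 0.0100. GDNF, LINC01667 and UPP2 were at 0.0125, 0.00464 and 0.00450 CPM per kb, each with at least 1 library at 0. SST and KCNK17 were at 0 in every control library.

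Over the whole table, 185 genes stayed within 3 counts throughout one group and exceeded 3 counts throughout the other. Of these, 175 did not pass the low-count filter of the fit (edgeR's filterByExpr, minimum count 10), and 10 did: the 8 members, RIPPLY1 and WNT7B. All 10 had an edgeR adjusted p under 0.05, which is not independent of how they were chosen. Over all 17592 tested genes, 28.2% were called by that threshold, 14.8% higher and 13.4% lower. Among the 3249 tested genes in the members' range of average expression, 10.1% were called. The CPM of the groups did not overlap for any of the 8 members, against no overlap for 41.8% of tested genes, and nothing is read from the members' count since the rule set it.

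RIPPLY1 and WNT7B have the pattern most like that of the members, by the lowest count of the higher group. RIPPLY1, a transcriptional co-repressor that acts in somite formation, was at 0 in control and at 12, 17 and 14 counts in SOX2 siRNA replicates 1 to 3. WNT7B, a secreted Wnt ligand, had 3, 1 and 2 counts in control, against 12, 15 and 11 in the SOX2 siRNA libraries. Both sets were higher after SOX2 siRNA, with no overlap.

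Just inside the limit among tested genes, with a highest count of 3 in the lower group, were the members GDNF, LUZP2, AL353747.2 and AC041005.1, and also WNT7B. Just outside it, with a highest count of 4 or 5, were 23 tested genes. The 4 with the highest counts in the other group, by its lowest library, were WNT8B, CHRNB4, CFC1 and EVX1. WNT8B, another Wnt ligand, had 62, 47 and 43 counts in control and 2, 4 and 3 counts in SOX2 siRNA libraries. CHRNB4, a nicotinic acetylcholine receptor subunit, had 3, 2 and 4 counts in control and 58, 60 and 39 counts in SOX2 siRNA libraries. CFC1, a co-receptor for Nodal, had 2, 5 and 0 counts in control and 37, 42 and 44 counts in SOX2 siRNA libraries. EVX1, a homeobox factor of the primitive streak, had 4, 2 and 2 counts in control and 42, 41 and 33 counts in SOX2 siRNA libraries.

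**Figure D3:**
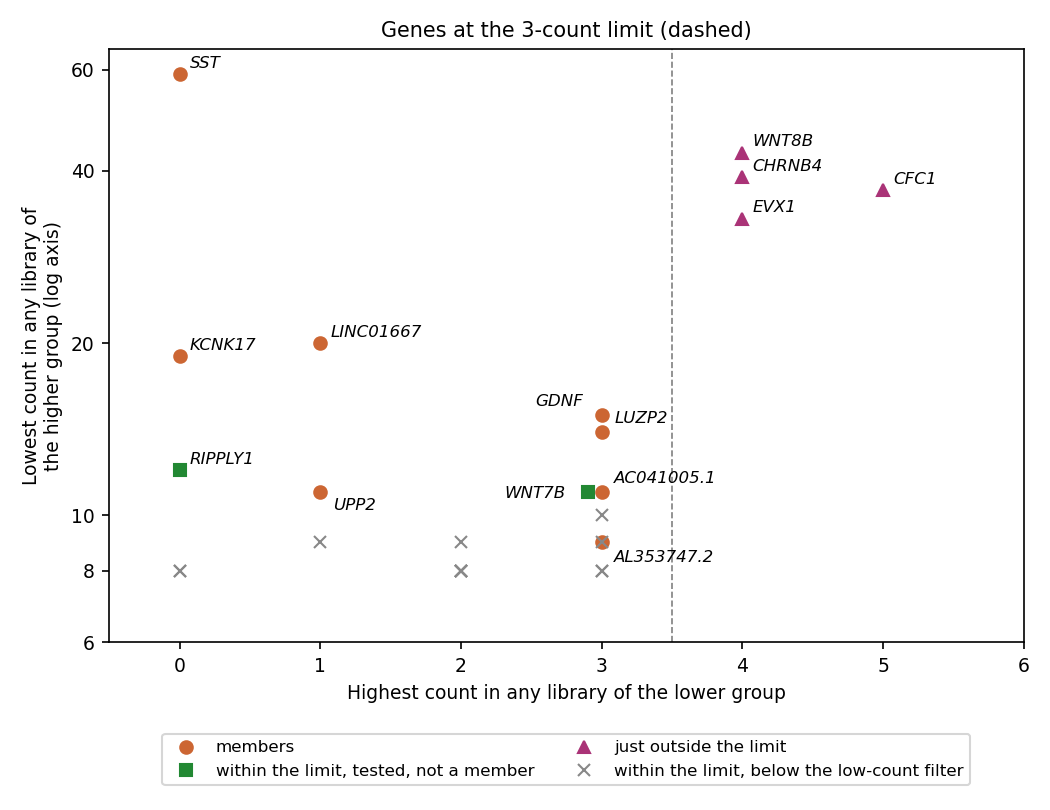
Highest count in the lower group against lowest count in the higher group (log axis) for members, genes of the same rule and genes just outside it. AC041005.1 and WNT7B share 1 point and are drawn side by side; CHRNB4, WNT8B, EVX1 and CFC1 lie to the right of the limit.

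Genes of the members' pathways were not used by the rule and were tested in the fit over all genes. The lists were chosen with earlier results of these data known, so their share of calls is not independent of them. The share over all tested genes given beside it is not matched for expression level. The 4 lists held 94 genes, of which 58 were tested and 26 were called by edgeR (44.8%, against 28.2% of all tested genes), 22 higher and 4 lower. Their median log2 fold change was 0.16, beside -0.00085 over all tested genes. By DESeq2's Wald test 18 of the 58 were called, beside 3923 of all 17592 tested genes.

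The somatostatin receptors were at low levels in both groups. SSTR2 had 27, 22 and 37 counts in control and 21, 26 and 24 counts in SOX2 siRNA libraries (log2 fold change -0.37, SE 0.263; edgeR adjusted p = 0.338). SSTR1 had between 2 and 10 counts, SSTR3 had between 1 and 4, and SSTR4 and SSTR5 had 0 in every library. CORT, which encodes the related peptide cortistatin, had 12, 7 and 8 counts in control and 0, 3 and 7 counts in SOX2 siRNA libraries, below the filter.

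Of 26 genes of the somatostatin system, 13 were tested, 4 rose and 2 fell, with a median log2 fold change of 0.079. CPE, a carboxypeptidase that trims peptide hormones, fell from 125 ± 4.17 to 95.1 ± 0.596 CPM (SD, n = 3; adjusted p = 4.14e-07 by edgeR). PCSK6, a proprotein convertase, fell by 0.23 on the log2 scale (edgeR adjusted p = 0.00287). FURIN, another proprotein convertase, rose by 0.23 (edgeR adjusted p = 5.86e-04), and PAM, which amidates peptides, by 0.20 (edgeR adjusted p = 2.92e-04). These 4 called processing enzymes thus moved in both directions. Beside SST, 12 endocrine markers summed to 20.5 to 22.7 CPM in control and 12.8 to 13.1 CPM in SOX2 siRNA libraries, 3 of the 12 were tested, and INS, GCG and PPY had 0 counts in all 6 libraries. Called markers were SCG3, a granule protein (log2 fold change -1.12; edgeR adjusted p = 9.53e-09), and SYP, a vesicle protein (log2 fold change 0.96; edgeR adjusted p = 0.00587). Their part in the SST result was not tested.

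For GDNF, the receptor side stayed low. RET had 20, 27 and 18 counts in control and 27, 36 and 37 counts in SOX2 siRNA libraries (log2 fold change 0.51, SE 0.279; edgeR adjusted p = 0.195). GFRA1, the preferred co-receptor, had 0 counts in every library except 3 in SOX2 siRNA replicate 1. GFRA2 had 2 counts in control replicate 1 and 0 elsewhere, and GFRA4 had 0 in all libraries. GFRA3, the co-receptor of artemin, had 20, 20 and 17 counts in control and 27, 26 and 36 counts in SOX2 siRNA libraries (log2 fold change 0.55; edgeR adjusted p = 0.154). For NCAM1, an alternative receptor, the log2 fold change was -0.012 (SE 0.308; edgeR adjusted p = 0.984).

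Among the other ligands, NRTN (neurturin) fell from 4.01 ± 0.332 to 2.91 ± 0.119 CPM (SD, n = 3; adjusted p = 0.0172 by edgeR). That call was lost by DESeq2's Wald test on all 6 libraries (adjusted p = 0.0782). It was also lost without control replicate 1 (edgeR adjusted p = 0.0841) and without SOX2 siRNA replicate 2 (edgeR adjusted p = 0.0714). ARTN (artemin) and PSPN (persephin) had log2 fold changes of -0.35 and -0.036 (edgeR adjusted p = 0.432 and 0.919). None of the 3 was called higher, the direction of GDNF.

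Transcription factors and signalling regulators tied to GDNF in kidney development held most of the calls in this list. Of its 28 genes 21 were tested, 10 rose and 1 (NRTN) fell, with a median log2 fold change of 0.35. Over all tested genes, 28.2% were called. Other regulators in the list, named after their values were seen, were not called. These were EYA1, SIX2, GATA3 and ETV4 (edgeR adjusted p = 0.288, 0.113, 0.547 and 0.861). PAX2 had at most 5 counts in any library, below the filter. FOXC1, a forkhead factor that limits the GDNF domain in kidney development, rose from 30.7 ± 0.602 to 109 ± 3.04 CPM (SD, n = 3; adjusted p = 4.03e-15 by edgeR). SPRY1, an inhibitor of receptor tyrosine kinase signalling, rose from 8.43 ± 0.273 to 16.3 ± 1.44 CPM (SD, n = 3; adjusted p = 1.04e-07 by edgeR). SDC3, a heparan sulfate proteoglycan that binds GDNF, rose by 0.49 on the log2 scale (edgeR adjusted p = 1.31e-08). SLIT2, named for its size after its values were seen, rose by 1.66 (edgeR adjusted p = 3.64e-05). The 7 Sertoli and kidney mesenchyme markers summed to 17.8 to 19.9 CPM in control and 16.3 to 17.7 CPM in SOX2 siRNA libraries, and their part in the GDNF result was not tested.

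Two-pore potassium channels other than KCNK17 were mostly undetected or near the floor: 3 of 14 listed genes were tested. KCNK5, a channel of the same alkaline-activated subfamily, rose from 14.6 ± 1.03 to 23.2 ± 0.334 CPM (SD, n = 3; adjusted p = 5.03e-07 by edgeR). KCNK16, the closest relative of KCNK17, had 0 counts in all libraries. KCNK12 and KCNK6 had log2 fold changes of 0.57 and 0.45 (edgeR adjusted p = 0.0937 and 0.407).

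The other uridine phosphorylase, UPP1, was not called. UPP1 counts were 188, 134 and 131 in control and 147, 138 and 156 in SOX2 siRNA libraries (log2 fold change -0.12, SE 0.125; edgeR adjusted p = 0.529). In pyrimidine salvage and breakdown, 21 of 26 genes were tested, 7 rose and 1 fell, with a median log2 fold change of 0.089. DPYD, which starts uracil breakdown, rose from 9.81 ± 0.215 to 12.5 ± 0.289 CPM (SD, n = 3; adjusted p = 0.00164 by edgeR). The nucleoside transporter SLC29A1 rose by 0.22 and the kinase DCK by 0.20 on the log2 scale (edgeR adjusted p = 4.85e-04 and 0.0145), and PNP, purine nucleoside phosphorylase, fell by 0.24 (edgeR adjusted p = 0.00826). The number of calls in this list was 3 by DESeq2's Wald test and 3 without SOX2 siRNA replicate 3. It was 4 by limma-voom and without SOX2 siRNA replicate 2, and 5 with upper-quartile scaling, without control replicate 2 and without control replicate 3. The DCK call was lost by DESeq2's Wald test (adjusted p = 0.0509). It was also lost without control replicate 1 and without SOX2 siRNA replicate 3 (edgeR adjusted p = 0.0688 and 0.0647).

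UPP2 is known for expression in liver. Of 8 hepatocyte markers 4 were tested and 0 were called by edgeR, DESeq2 or limma-voom, with 0 at an unadjusted p under 0.05. The list summed to 2.08 to 5.88 CPM in control and 1.61 to 5.23 CPM in SOX2 siRNA libraries. ALB had 68, 22 and 3 counts in control and 57, 2 and 28 counts in SOX2 siRNA libraries, so it varied widely within both groups. LUZP1, named like LUZP2 for its leucine zippers, had a log2 fold change of -0.087 (edgeR adjusted p = 0.109). Beside LUZP2, the 7 astrocyte and oligodendrocyte precursor markers summed to 114 to 115 CPM in control and 117 to 127 CPM in SOX2 siRNA libraries, and OLIG1 and OLIG2 had 0 counts throughout. Blood markers (5 genes) summed to under 1 CPM in every library, and 5 fibroblast markers to 273 to 321 CPM in control and 359 to 407 CPM in SOX2 siRNA libraries. COL1A1 makes up most of the fibroblast sum, with a mean of 282 CPM in control and 358 CPM after SOX2 siRNA. It was the only marker called of the 3 tested. Mean COL1A2 went the other way, from 17.9 to 16.4 CPM, and LUM rose from 1.08 to 1.55 CPM, neither called. The part of these cell types in the members' differences was not tested.

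**Figure D4:**
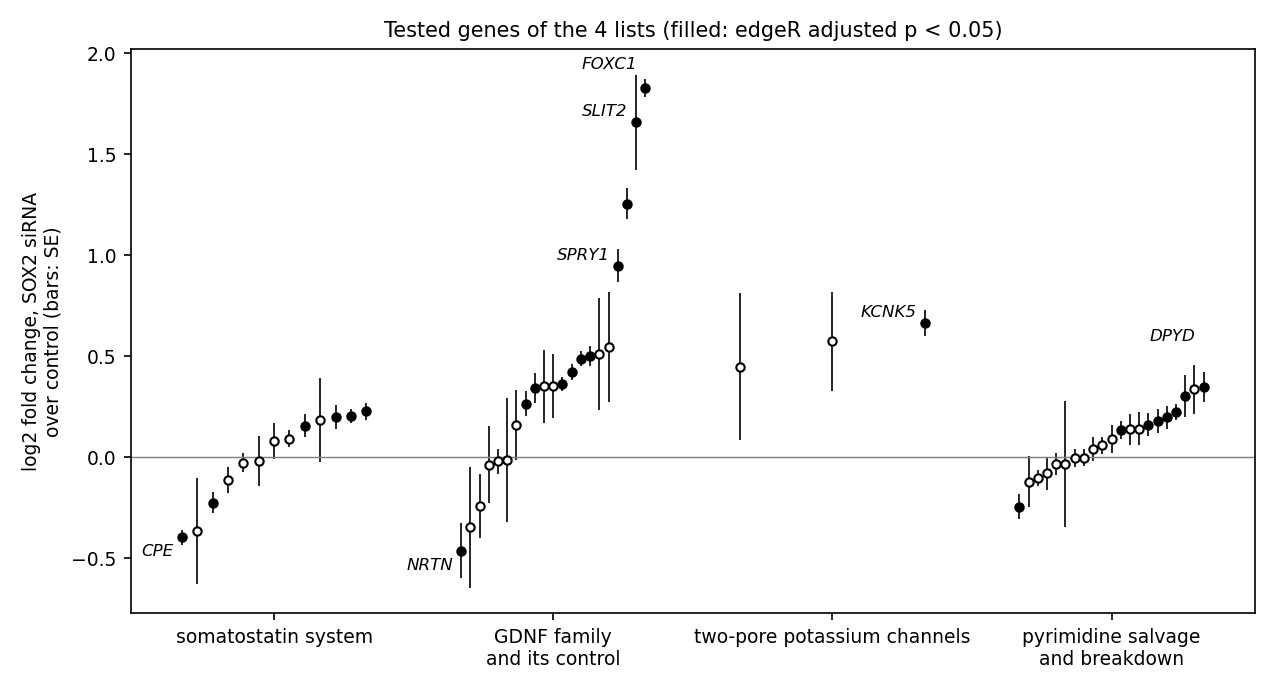
Log2 fold changes (SOX2 siRNA over control, bars SE) of the tested genes in the 4 pathway lists, with filled points for edgeR adjusted p under 0.05. FOXC1 (1.83) and SLIT2 (1.66) stand highest, and the somatostatin and pyrimidine genes lie between -0.40 (CPE) and 0.35 (DPYD).

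Position was also outside the rule. For the 7 members with an annotated position, the 3 nearest tested genes on either side within 1 Mb numbered 33, and LUZP2 had none. Of the 33, edgeR called 12 (36.4%, against 28.2% of all tested genes), 9 in the direction of their member and 3 in the other. The median log2 fold change of the 33 was 0.00037.

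The largest difference was at AL353747.2. HPAT5, a lincRNA of a family named for its expression in pluripotent cells, lies 4.38 kb upstream on the same strand. It had 788, 492 and 613 counts in control and 199, 202 and 168 counts in SOX2 siRNA libraries. Its level fell from 21.6 ± 2.14 to 6.15 ± 0.491 CPM (SD, n = 3), a log2 fold change of -1.81 (SE 0.0888; edgeR adjusted p = 5.69e-11). Both lincRNAs of this interval were thus lower after SOX2 siRNA. AFDN, an adherens junction protein gene 581 kb from AL353747.2, had a log2 fold change of -0.14 (edgeR adjusted p = 0.00735).

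At KCNK17, KCNK5 lies 69.6 kb downstream on the same strand, so the channel that rose within the list is also a genomic neighbour. DAAM2, a formin in Wnt signalling, lies 478 kb away and rose by 0.63 on the log2 scale (edgeR adjusted p = 5.74e-07). At UPP2, the tested gene with the nearest start is ACVR1, an activin and BMP type I receptor, which begins 0.84 kb from the outermost annotated UPP2 start and runs the opposite way. ACVR1 rose from 69.9 ± 4.23 to 102.7 ± 2.94 CPM (SD, n = 3; adjusted p = 6.33e-08 by edgeR). The lincRNA AC013731.1 begins 0.981 kb past that UPP2 start on the same strand, and its body lies over that of UPP2. AC013731.1 counts were 24, 22 and 16 in control and 29, 31 and 19 in SOX2 siRNA libraries (log2 fold change 0.25; edgeR adjusted p = 0.563). The RefSeq UPP2 start sites lie within the gene span, farther from ACVR1. PKP4, a desmosomal protein gene, had a log2 fold change of -0.11 (edgeR adjusted p = 0.0408) that was not called when control replicate 2 or 3, or any single SOX2 siRNA library, was left out (edgeR adjusted p = 0.0606 to 0.133).

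At GDNF, 3 genes on the upstream side rose. EGFLAM, an extracellular matrix protein gene 419 kb away, had 43, 31 and 39 counts in control and 83, 108 and 104 counts in SOX2 siRNA libraries (log2 fold change 1.29, SE 0.174; edgeR adjusted p = 2.03e-05). LIFR, the leukemia inhibitory factor receptor, rose by 0.69 and its antisense gene LIFR-AS1 by 0.66 on the log2 scale (edgeR adjusted p = 1.06e-08 and 0.00129), and without strand their shared reads cannot be told apart. At SST, MASP1, a complement protease gene, rose by 0.55 (edgeR adjusted p = 0.00657), while the repressor gene BCL6 had a log2 fold change of -0.41 and LPP, a focal adhesion gene, of -0.24 (edgeR adjusted p = 0.0104 and 1.75e-04). The BCL6 call was lost without control replicate 2 (edgeR adjusted p = 0.0804). Of the 3 tested neighbours of LINC01667, 0 were called by edgeR, DESeq2 or limma-voom, and 0 had an unadjusted p under 0.05.

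**Figure D5:**
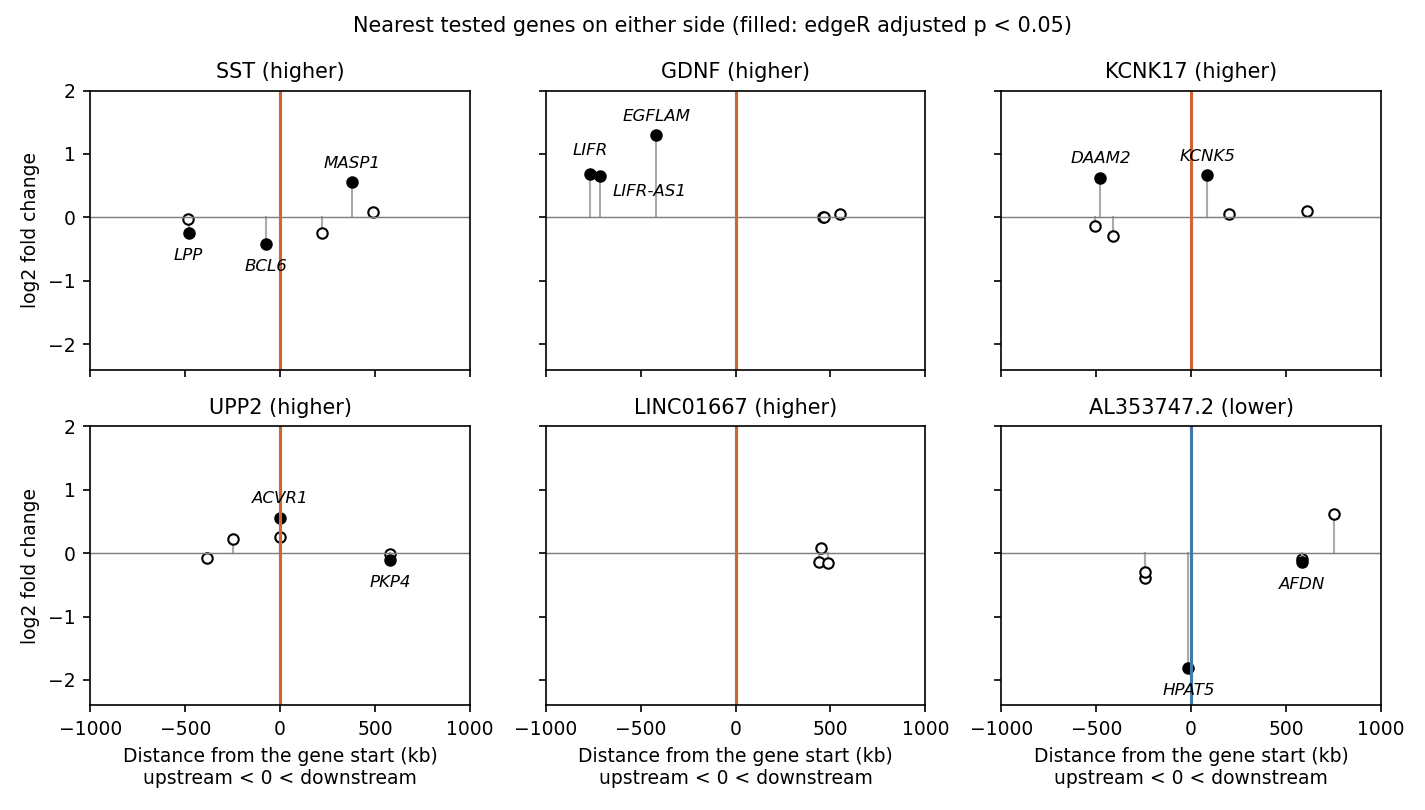
Log2 fold change of the tested neighbours of 6 members against distance between gene starts (kb), with filled points for edgeR adjusted p under 0.05. HPAT5, next to AL353747.2, lies lowest at -1.81, and EGFLAM, on the GDNF side, highest at 1.29.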

How the data were processed

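Raw read counts per gene symbol were deposited by the authors as 1 table, with 1 column per library. The submitters' processing notes list bcl2fastq 2.20.0, STAR 2.7.3a, Salmon 0.14.1, DESeq2 1.28.1 and GRCh38.p13, without role or order; the annotation and the use of strand are not given in the sources used here. The members and lists were chosen with earlier results of these data known.

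Genes were kept by filterByExpr (minimum count 10), scaled by TMM (factors 0.991 to 1.01) and tested with edgeR 4.0.16 (glmQLFit, robust; glmQLFTest) in R 4.3.3 over all 6 libraries, with p-values adjusted by Benjamini-Hochberg across the tested genes. Alternatives used DESeq2 1.42.0 and limma 3.58.1 (voom). CPM used the scaled totals. Counting intervals are exact, at 95%. Without molecular identifiers, PCR copies cannot be told from separate molecules. Positions and lengths are from GENCODE 29 (GRCh38), which need not be the authors' annotation. Named genes were the members, SOX2, up to 4 called genes per list by p, receptors, partner ligands and paralogs, called neighbours, and genes alike or just outside the limit. A gene that meets this rule is not reported here. Tables and figures used Python 3.11.15 (matplotlib 3.10.9, pandas 2.3.3, scipy 1.17.1, numpy 2.4.6).

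Replicates differed by more than counting noise (chi-square per degree of freedom 2.85 to 6.32). Counts were also simulated for the 17592 tested genes with 200 of them changed, and 17297 genes passed the filter again. In these data edgeR recovered 72.5% (44% of the 1.25-fold and 96% of the 4-fold changes), and 2.03% of its calls were false. In the real data 28.2% of tested genes were called, a far larger share than was changed here, so these rates need not hold there.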

Additional observations from a re-analysis of the deposited data

How the results depend on the processing

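The limit of 3 counts sets how many tested genes count as near-silent: 10 at the limit used, 5 at 1 count, 33 at 5 counts and 167 at 10 counts. Leaving out 1 library gave 29 to 38, since fewer libraries must then meet the limit. With no filter and at least 10 counts in the higher group the count was also 10, but the set changed. AL353747.2, with 9 counts in control replicate 2, left it and DIO3OS entered. With only the nearest tested gene on either side, 5 of 11 neighbours were called; in the other settings 10 to 13 of the neighbours were. Pathway calls ranged from 18 (DESeq2's Wald test) to 28 (no filter), and calls over all genes from 3760 (without SOX2 siRNA replicate 2) to 5212 (no filter). Upper-quartile scaling gave 2311 higher and 2734 lower calls.

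The replicate block (replicate number as a factor) gave 5177 calls over all genes, 26 in the pathway lists and 13 among neighbours. Same-numbered libraries did not deviate together (correlations 0.0868, -0.0377 and -0.0311), so the numbers were not taken to pair libraries. Of 72 alternative values of member folds, 63 moved by less than the SD of the log2 levels in the higher group and 9 by more. These 9 include values of UPP2 and LINC01667 where leaving out the library with the control count changed the measure from a ratio to a bound. The direction of the member folds is fixed by how the members were chosen. Of 554 values of 40 single genes, 13 lost a call (PKP4 6, DCK 3, NRTN 3 and BCL6 1) and 1, LUZP1 with upper-quartile scaling, gained one. Depth sets the floor: a count of 0 in a single control library allows up to 0.120 CPM. The libraries of a group were not pooled for this floor.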

Other observations

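Genes that met the 3-count limit but did not pass the low-count filter numbered 12 when at least 8 counts were asked of every library of the higher group. They have no test, and were named after their values were seen. Higher after SOX2 siRNA were LINC02870, ABCB10P1, EMX2OS, F12, GPR183 and RIMBP2. ABCB10P1, a pseudogene, was at 0 in each of the 3 control libraries and at 9, 11 and 8 counts in SOX2 siRNA libraries. F12, coagulation factor XII, had 1, 3 and 3 counts in control and 13, 10 and 8 counts in SOX2 siRNA libraries. EMX2OS, antisense to a homeobox gene, had 2, 0 and 2 counts in control and 10, 8 and 11 counts in SOX2 siRNA libraries.

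Higher in control were DIO3OS, RNU4-2, RPPH1, AC092134.2, LINC01798 and RNU4-1. RNU4-1 and RNU4-2, near-identical copies of the U4 small nuclear RNA whose reads can be split between them, had 11, 16 and 8 and 14, 25 and 9 counts in control. In SOX2 siRNA libraries RNU4-1 had 0 in all 3, and RNU4-2 had 0, 0 and 1. RPPH1, the RNA of ribonuclease P, had 11, 20 and 9 counts in control and 3, 3 and 0 counts in SOX2 siRNA libraries. These are RNAs without a poly(A) tail in libraries that capture polyadenylated RNA. DIO3OS, at the imprinted DIO3 locus, had 10, 14 and 13 counts in control and 2, 3 and 1 counts in SOX2 siRNA libraries. KCNK3, an acid-sensitive two-pore potassium channel, was at 0 in control and at 6, 4 and 6 counts in SOX2 siRNA libraries, below the filter.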
